A study of Mus musculus with 12 samples.

Results

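Ribosome biogenesis genes encode the proteins that transcribe, cut, modify and fold ribosomal RNA (rRNA) and assemble it with ribosomal proteins in the nucleolus. The group described here is a list of 45 genes chosen by name, of which 43 had at least 1 probe set on the arrays that was annotated to a single gene symbol. Npm3 and Mrto4 were not analysed here. Each gene was followed on its brightest probe set (highest average over the 12 arrays). The 43 measured genes had 83 probe sets in all, out of 18193 genes and 45037 probe sets tested.

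The arrays were Affymetrix mouse expression arrays hybridised with RNA from spleen T cells of female C57BL/6 mice that the labels give as 8 to 12 weeks old, with no genetic alteration named. CD8+ NKT-like cells (5 arrays) were splenic CD8+ T cells expanded with beads that carried anti-CD3 and anti-CD28 in the presence of high dose interleukin-2, and cultured CD4+ cells (3 arrays) were sorted CD4+ T cells expanded by the same protocol. Naive CD8+ cells (2 arrays) were taken fresh from the spleen. Activated CD8+ cells (2 arrays) were stimulated with low dose soluble anti-CD3 and anti-CD28. The study describes the CD8+ NKT-like and the cultured CD4+ arrays as independent cultures. The sources used here do not say whether the arrays of naive or of activated cells came from separate mice or preparations, so the spread between those arrays may be technical. CD8+ NKT-like and cultured CD4+ cells differ in lineage, and activated CD8+ cells differ from CD8+ NKT-like cells in both stimulus and culture, so lineage, stimulus and culture cannot be told apart across these groups. Fresh CD4+ cells were not analysed here. Values are log2 signal, on which 1 unit is a doubling.

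A ribosome begins as a long precursor transcribed by RNA polymerase I. Small nucleolar ribonucleoproteins (snoRNPs) of the box C/D kind guide methylation of this precursor and those of the H/ACA kind guide conversion of uridine to pseudouridine, while the small subunit processome and a separate set of large subunit factors cut and fold it. In resting T cells the nucleolus is small, and antigen receptor signals, growth factors and MYC proteins are known to enlarge it as the cells prepare to divide.

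Most of the genes lay higher in all 3 stimulated or cultured groups than in naive CD8+ cells, and highest in activated CD8+ cells. The activated mean was the highest of the 4 group means for 38 of 43 genes, and the naive mean was the lowest for 37 of 43. The median difference from naive cells was 0.69 on the log2 scale in CD8+ NKT-like cells, 0.81 in cultured CD4+ cells and 1.39 in activated CD8+ cells. The corresponding medians over all 18193 genes were -0.05, -0.06 and -0.05. These 3 comparisons share the same 2 naive arrays, so a shift in either naive array enters all of them.

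**Figure D1:**
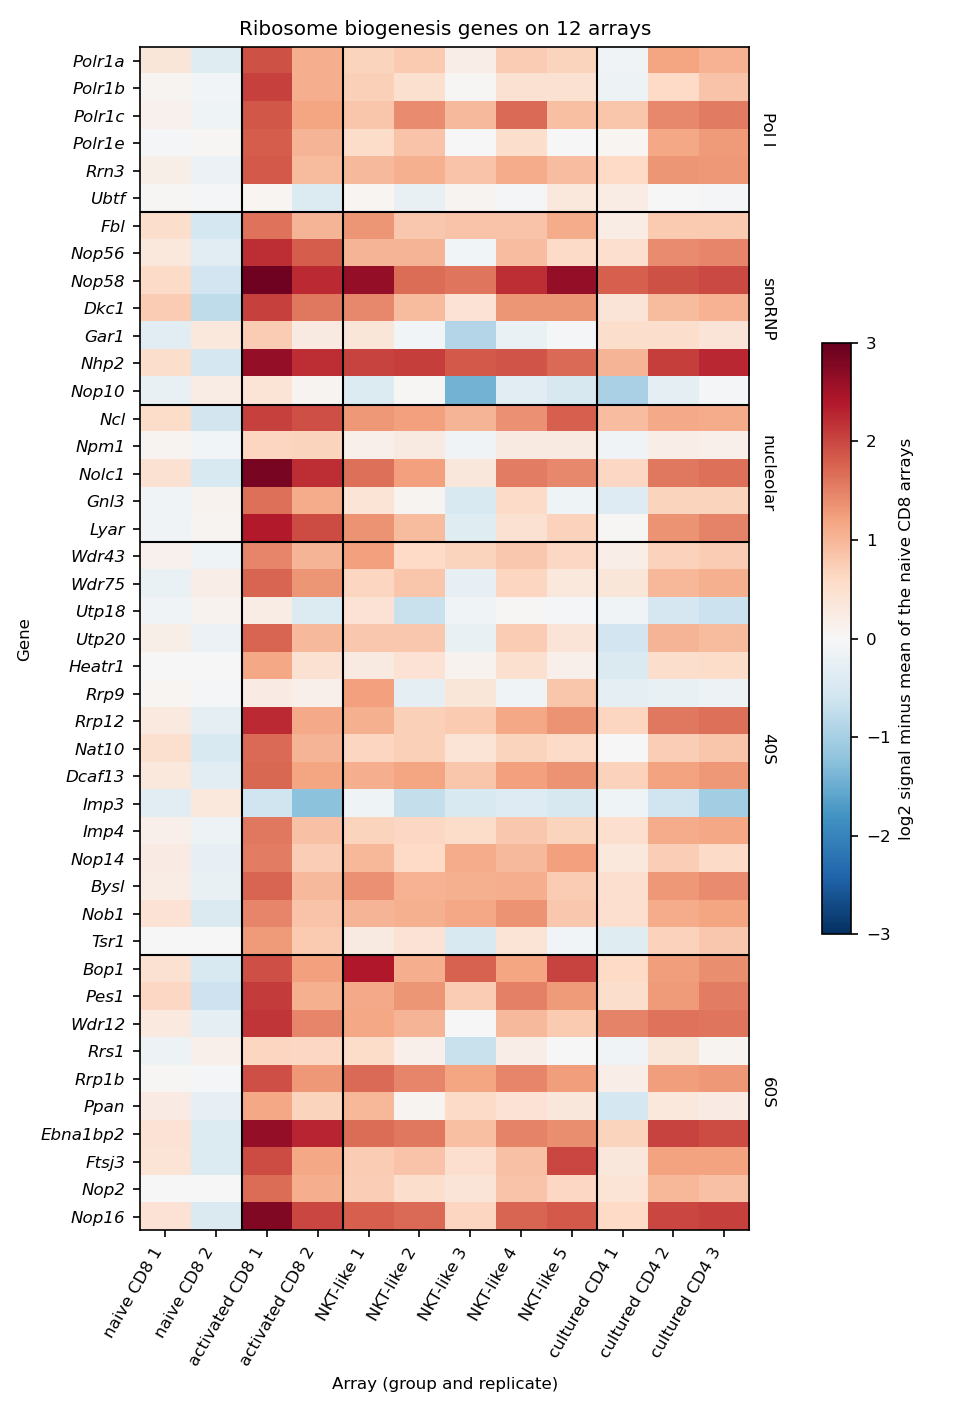
Log2 signal of the 43 measured ribosome biogenesis genes (rows, grouped by role) on each of the 12 arrays (columns, grouped by cell type), minus the mean of the 2 naive CD8 arrays. Red is higher and blue is lower; activated CD8 replicate 1 is the reddest column, with 42 genes above both naive arrays, while Gar1, Nop10, Ubtf, Utp18 and Imp3 stay pale or blue in most columns.

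Single genes were compared with limma, a linear model fitted to all probe sets at once, and a gene was called at a q value (an estimate of the false discovery rate) of 0.01 or less. Against naive cells, 13 of 43 genes rose in CD8+ NKT-like cells (30.2%), 10 in cultured CD4+ cells (23.3%) and 15 in activated CD8+ cells (34.9%). None of the 43 was called lower. Over all genes, 10.7%, 11.6% and 4.43% were called higher in the same 3 comparisons, and 6.86%, 5.64% and 2.78% were called lower. Before adjustment, limma's p was under 0.05 in the higher direction for 23, 21 and 36 of the genes, and in the lower direction for 0, 0 and 1. Over all genes it was so for 19.9%, 20.9% and 14.5% in the higher and 18.8%, 17.8% and 12.7% in the lower direction. The differences were positive for 39, 39 and 40 genes, whereas 43.5%, 44.4% and 43.6% of all genes had a positive difference. All genes include many with dim probe sets, whereas all 43 passed a filter on dim probe sets. Fitted after that filter, 37.2%, 32.6% and 55.8% of the 43 were called higher, against 17.4%, 19.2% and 8.46% of the 12901 genes kept.

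The counts depended on single arrays, and the shares over all genes moved too. Without naive CD8+ replicate 2, 0 genes were called in any of the 3 comparisons, with 2.32%, 3.5% and 0.731% of all genes called higher. Without naive CD8+ replicate 1 the counts were 8, 6 and 9 (5.69%, 6.4% and 1.92% of all genes), where a lone naive array is taken to spread as much as the others do. Without cultured CD4+ replicate 1 they were 18, 19 and 25 (11.8%, 15.3% and 5.9% of all genes). The count for CD8+ NKT-like cells was 7 without NKT-like replicate 1, 8 without replicate 2 and 7 without replicate 4 (8.68%, 9.07% and 8.06% of all genes). That for cultured CD4+ cells was 0 without cultured CD4+ replicate 2 and 0 without replicate 3 (5.81% and 6.15% of all genes), and that for activated CD8+ cells was 0 without activated CD8+ replicate 1 (0.808% of all genes). In activated cells 0 genes were also called when they were fitted with naive cells alone or with array weights, settings that called 0.308% and 0.473% of all genes higher. The median differences without naive CD8+ replicate 2 were 0.52, 0.50 and 1.14, so they kept their sign.

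Counted without a test, all 5 arrays of CD8+ NKT-like cells lay above both naive arrays for 21 of 43 genes (48.8%, against 20.9% of all genes). The 3 arrays of cultured CD4+ cells did so for 23 genes (53.5%, against 25.6%). Both activated arrays did so for 38 genes (88.4%, against 21.1%). Both naive arrays lay below all of the other 10 for 17 genes, which 11.1% of all genes did.

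The arrays themselves differed in ways that move with these counts. Markers of B cells, plasma cells and red cell precursors were highest in the naive arrays. The array mean of 11 measured B and plasma cell markers of 12 listed was 9.07 and 9.0 in the naive arrays, 7.16 and 7.04 in the activated arrays, 6.24 to 6.61 in CD8+ NKT-like cells and 6.32 to 7.00 in cultured CD4+ cells. Of those 11 markers, 9, 8 and 5 were called lower in the 3 groups than in naive cells. The mean of 9 measured red cell precursor markers of 11 listed was 8.45 and 8.75 in the naive arrays and 6.29 to 6.66 in all others, with 6, 5 and 5 called lower, among them Klf1 at log2 differences of -4.23, -4.30 and -4.10. The mean of 11 measured myeloid markers was 6.57 and 6.74 in the naive arrays, 6.19 and 6.58 in the activated arrays and 6.08 to 6.42 in the cultures, with 3, 2 and 0 called lower. The part of these cells in the ribosome biogenesis differences was not tested. In such bulk RNA, fewer cells of a type and less RNA per cell cannot be told apart. Cd8a and Cd4 followed the labels, Cd8a being 6.42 to 6.92 in cultured CD4+ cells and 9.94 to 11.72 in the other groups. The mean of 6 measured T cell markers of 7 listed, Cd8a and Cd4 among them, was 11.05 and 10.31 in the naive and 10.14 and 9.89 in the activated arrays. All 6 were lower in activated than in naive cells, at a median of -0.68, and 0 were called.

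The spread of values over an array also differed. Its SD was 1.83 and 1.78 in the naive arrays and 1.80 in activated CD8+ replicate 2, and 1.91 to 2.03 in the other 9, although the deposited medians differed little (6.23 to 6.42). When all arrays were forced to the same distribution by quantile normalization, the median difference of the 43 genes from naive cells fell from 0.69 to 0.40 in CD8+ NKT-like cells, from 0.81 to 0.50 in cultured CD4+ cells and from 1.39 to 1.29 in activated CD8+ cells. The counts called higher were then 10, 5 and 23 (23.3%, 11.6% and 53.5%), against 9.08%, 9.2% and 6.04% of all genes, so the share in cultured CD4+ cells was then near that of all genes.

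**Figure D2:**
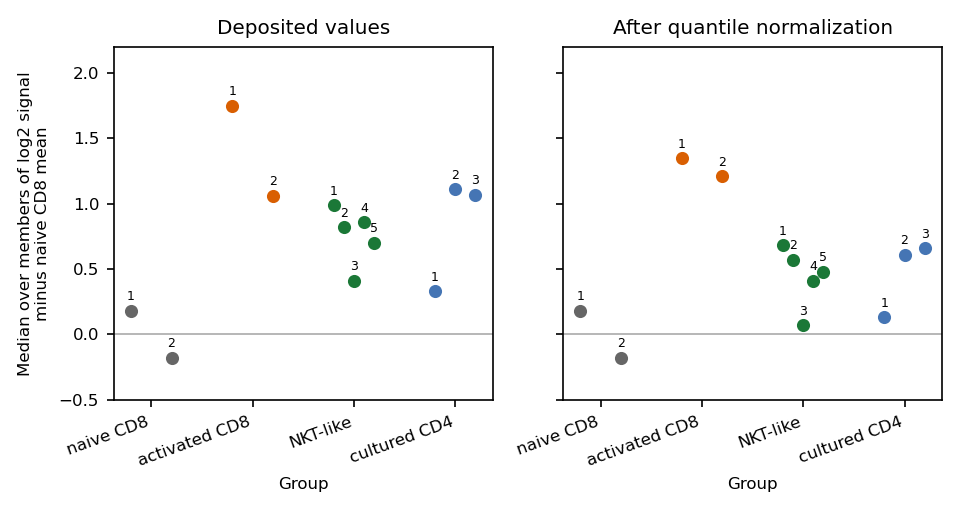
Median over the 43 genes of each array's log2 signal minus the naive CD8 mean, by group, for the deposited values (left) and after quantile normalization (right); digits beside the points are replicate numbers and the grey line is 0. On the deposited values NKT-like replicate 3 (0.41) and cultured CD4 replicate 1 (0.33) sit nearest the naive arrays, and after normalization both activated arrays (1.35 and 1.21) sit above all others.

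Within groups the genes moved together from array to array. The median of the 43 genes above the naive mean was 0.99, 0.82, 0.41, 0.86 and 0.70 in CD8+ NKT-like replicates 1 to 5, and 0.33, 1.11 and 1.07 in cultured CD4+ replicates 1 to 3. NKT-like replicate 3 was the lowest of its 5 arrays for 29 of 43 genes, whereas it was the lowest for 20.9% of all genes. Cultured CD4+ replicate 1 was the lowest of its 3 arrays for 39 of 43 genes, against 38.5% of all genes. Activated CD8+ replicate 1 lay above replicate 2 for 42 of 43 genes (51% of all genes), by a median of 0.62. After quantile normalization it did so for 34 of 43 (48% of all genes), by a median of 0.14. Naive CD8+ replicate 1 lay above replicate 2 for 32 of 43 genes (43.6% of all genes), by a median of 0.37. After quantile normalization it did so for 28 of 43 (44.6% of all genes). The median SD of the genes was 0.301 in CD8+ NKT-like cells, 0.442 in cultured CD4+ cells, 0.338 in naive cells and 0.441 in activated cells. The median over all genes, which include many with dim probe sets, was 0.146, 0.174, 0.129 and 0.276. The part of brightness in that gap was not tested.

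Because many of the genes moved together, their promoters were read for short motifs. The RefSeq promoter table (build GRCm38.p6) held 39 of the 45 listed genes, with 47 promoters of 300 bases each, from 250 bases before the transcription start to 50 bases after it. The E-box CACGTG, the letters that MYC and MAX bind, stood in 8 of 47 promoters (17.0%), against 7.15% of all 32851 promoters. The ETS motif CCGGAAGT, on either strand, stood in 9 (19.1%), against 3.89%. The GC box GGGCGG stood in 63.8% against 35.7%, CCAAT in 27.7% against 37.4% and the YY1 core AAGATGG in 6.38% against 6.34%. All motifs were searched on both strands, and a match is a description of letters, not of binding. Promoters of the other ribosome biogenesis genes held CACGTG in 20.2%, CCGGAAGT in 32.6% and GGGCGG in 61.8%, and those of the cytosolic ribosomal protein genes in 11.8%, 16.2% and 61.8%.

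The 250 bases before the start are shown for the 4 genes with CACGTG in that stretch (Rrn3, Imp4, Nop2 and Utp18) and for Nop58 and Nhp2, which had the highest differences between CD8+ NKT-like and naive cells. Sequences run 5′ to 3′ on the strand of the gene. Capitals mark CACGTG or CCGGAAGT, on either strand, where the whole motif lies inside the stretch. Bop1, Dcaf13, Fbl, Npm1, Rrp12 and Rrs1 had no entry.
Rrn3, chr16:13780449-13780698, plus strand: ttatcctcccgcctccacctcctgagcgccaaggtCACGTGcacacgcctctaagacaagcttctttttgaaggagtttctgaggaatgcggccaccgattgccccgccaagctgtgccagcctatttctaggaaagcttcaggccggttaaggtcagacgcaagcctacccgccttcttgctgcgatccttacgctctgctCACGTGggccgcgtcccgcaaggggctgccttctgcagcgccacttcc
Imp4, chr1:34439579-34439828, plus strand: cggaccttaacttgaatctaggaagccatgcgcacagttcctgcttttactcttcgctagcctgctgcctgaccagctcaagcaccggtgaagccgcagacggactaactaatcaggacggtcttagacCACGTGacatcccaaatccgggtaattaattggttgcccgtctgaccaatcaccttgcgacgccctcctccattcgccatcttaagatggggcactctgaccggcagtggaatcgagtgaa
Nop2, chr6:125131633-125131882, plus strand: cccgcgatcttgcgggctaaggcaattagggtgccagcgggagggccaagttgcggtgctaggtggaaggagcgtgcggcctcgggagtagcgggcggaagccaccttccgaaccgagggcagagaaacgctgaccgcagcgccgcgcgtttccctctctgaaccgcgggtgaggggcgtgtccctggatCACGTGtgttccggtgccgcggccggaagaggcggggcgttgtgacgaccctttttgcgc
Utp18, chr11:93885767-93886016, minus strand: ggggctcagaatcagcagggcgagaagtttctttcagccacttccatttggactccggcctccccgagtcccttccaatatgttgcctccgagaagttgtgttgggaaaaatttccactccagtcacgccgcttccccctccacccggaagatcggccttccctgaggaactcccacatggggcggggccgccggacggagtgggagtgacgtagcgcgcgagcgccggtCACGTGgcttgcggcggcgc
Nop58, chr1:59684756-59685005, plus strand: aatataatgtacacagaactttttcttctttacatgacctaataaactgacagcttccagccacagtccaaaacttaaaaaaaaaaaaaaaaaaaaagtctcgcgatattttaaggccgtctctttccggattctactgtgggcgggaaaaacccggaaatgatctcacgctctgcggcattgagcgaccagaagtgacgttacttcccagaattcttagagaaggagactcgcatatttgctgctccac
Nhp2, chr11:51619523-51619772, plus strand: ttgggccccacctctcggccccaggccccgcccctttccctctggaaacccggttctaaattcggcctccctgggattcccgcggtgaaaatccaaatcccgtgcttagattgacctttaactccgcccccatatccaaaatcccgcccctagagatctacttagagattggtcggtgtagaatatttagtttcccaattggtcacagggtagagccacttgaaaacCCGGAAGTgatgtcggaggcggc

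Rrn3 held the E-box at both -215 and -48 from its start, Imp4 at -121, Nop2 at -60 and Utp18 at -20. Nhp2 held the ETS motif at -23, and Nop58 held neither in this stretch. Rrn3 also held the ETS motif, from -6 across the start, so it is cut by the end of the stretch and not in capitals. The E-boxes of Utp20, Pes1, Tsr1 and Wdr43 lay after the start. Of the 8 genes with the E-box, Rrn3 was called higher in all 3 comparisons with naive cells, Imp4 in cultured CD4+ and activated cells, Wdr43 in CD8+ NKT-like and activated cells and Nop2 in activated cells. Utp20, Pes1, Tsr1 and Utp18 were called in none, and the differences of Utp18 from naive cells were -0.07, -0.41 and -0.10. Of all 43 measured genes, 19 were called in any of these comparisons, a share near that of the genes with the E-box. A link between the E-box and the calls was not tested.

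RNA polymerase I and its factors make the rRNA precursor. Of 6 measured genes, Polr1c and Rrn3 were called higher than naive in all 3 groups. That is 33.3% in each, against 10.7%, 11.6% and 4.43% of all genes. Polr1a, Polr1b and Polr1e had positive differences that did not pass, and Ubtf had differences between -0.17 and 0.07. Rrn3, the initiation factor that joins the polymerase to its promoter, read 7.82, 7.92, 7.72, 7.96 and 7.78 in CD8+ NKT-like cells. It read 7.45, 8.19 and 8.15 in cultured CD4+ cells, 7.03 and 6.68 in naive cells and 8.70 and 7.80 in activated cells. All 10 non-naive arrays were above both naive arrays, and the 5 NKT-like arrays spanned only 7.72 to 7.96. The log2 difference from naive was 0.98 ± 0.24 (SE; q = 0.0061) in CD8+ NKT-like cells, 1.08 ± 0.27 (q = 0.0063) in cultured CD4+ cells and 1.39 ± 0.29 (q = 0.0074) in activated cells.

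Polr1c, a subunit that RNA polymerases I and III share, read 9.64, 10.21, 9.76, 10.50 and 9.71 in CD8+ NKT-like cells and 9.62, 10.25 and 10.36 in cultured CD4+ cells. It read 8.93 and 8.66 in naive and 10.65 and 9.98 in activated cells. The naive arrays again lay below all others. Its differences were 1.16 ± 0.28 (q = 0.0053), 1.28 ± 0.30 (q = 0.0052) and 1.52 ± 0.33 (q = 0.0092) in CD8+ NKT-like, cultured CD4+ and activated cells. Polr1b, the second-largest subunit, was 1.56 ± 0.35 above naive in activated cells with q = 0.0101, just outside the threshold, and 0.43 above it in CD8+ NKT-like and in cultured CD4+ cells (q = 0.13 and 0.15). Polr1a, the largest subunit, gave 0.62, 0.71 and 1.51 (q = 0.089, 0.082 and 0.025). A dimmer probe set of Polr1a was called higher in CD8+ NKT-like (0.54, q = 0.0025) and activated cells (0.63, q = 0.0075). Ubtf, which binds and opens rRNA genes, read 9.91 and 9.83 in naive cells and 9.46 to 10.18 in the others, so its groups overlapped.

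The snoRNP proteins gave the 2 highest differences of the group in CD8+ NKT-like cells, and also its lowest. Of 7 genes, 2 were called higher than naive in CD8+ NKT-like cells, 2 in cultured CD4+ cells and 3 in activated cells. The shares were 28.6%, 28.6% and 42.9%, against 10.7%, 11.6% and 4.43% of all genes. Nop58, a core protein of box C/D snoRNPs, read 10.85, 9.88, 9.81, 10.42 and 10.85 in CD8+ NKT-like cells. It read 10.00, 10.11 and 10.19 in cultured CD4+ cells, 8.79 and 7.63 in naive cells and 11.12 and 10.45 in activated cells. The naive arrays differed by over 1 log2 unit from each other and still lay below all the rest. The differences were 2.15 ± 0.36 (a 4.44-fold level, q = 0.00081), 1.89 ± 0.39 (3.71-fold, q = 0.0027) and 2.58 ± 0.43 (5.97-fold, q = 0.0025). Its partner Nop56 was called in activated cells at 2.02 ± 0.41 (q = 0.0063), with 0.69 in CD8+ NKT-like cells (q = 0.067) and 1.13 in cultured CD4+ cells (q = 0.021). Fbl, the methyltransferase of the same particles, gave 1.00, 0.60 and 1.32 (q = 0.011, 0.076 and 0.018), and its second probe set was called in CD8+ NKT-like cells at 1.79 (q = 0.0062).

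Among the H/ACA proteins, Nhp2 read 11.73, 11.79, 11.54, 11.60 and 11.41 in CD8+ NKT-like cells and 10.72, 11.77 and 11.97 in cultured CD4+ cells. It read 10.23 and 9.18 in naive and 12.33 and 11.92 in activated cells, so the naive arrays lay below all others. Its differences were 1.91 ± 0.33 (q = 0.00099), 1.78 ± 0.36 (q = 0.0024) and 2.42 ± 0.39 (q = 0.0023), and a second probe set gave calls in the same 3 comparisons. Dkc1, the pseudouridine synthase to which Nhp2 belongs as a partner, gave 1.1, 0.79 and 1.83 without passing (q = 0.024, 0.079 and 0.016), although 1 of its other 2 probe sets was called in CD8+ NKT-like (1.32) and activated cells (1.94).

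Gar1 and Nop10, the other partners of Dkc1, did not follow it. Gar1 read 10.78, 10.33, 9.53, 10.21 and 10.34 in CD8+ NKT-like cells, 10.94, 10.94 and 10.80 in cultured CD4+ cells, 10.08 and 10.73 in naive cells and 11.16 and 10.67 in activated cells. All 5 NKT-like arrays lay below all 3 cultured CD4+ arrays, at a difference of -0.66 (95% interval -1.20 to -0.12) that did not pass (q = 0.18). Nop10 read 11.60, 12.05, 10.60, 11.66 and 11.53 in CD8+ NKT-like cells, 11.04, 11.75 and 11.98 in cultured CD4+ cells, 11.79 and 12.23 in naive cells and 12.43 and 12.10 in activated cells. Its naive arrays overlapped each other group, while both activated arrays lay above every NKT-like and cultured CD4+ array. Its differences from naive were -0.52, -0.42 and 0.26 (q = 0.12, 0.18 and 0.48).

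Among the role groups, the nucleolar organisers and growth regulators had the largest median differences from activated cells, -1.29 in CD8+ NKT-like and -1.07 in cultured CD4+ cells. All 5 measured genes (Ncl, Npm1, Nolc1, Gnl3 and Lyar) had both activated arrays above the other 10. Ncl, nucleolin, an abundant RNA-binding protein of the nucleolus, read 12.53, 12.45, 12.25, 12.59 and 13.02 in CD8+ NKT-like cells. It read 12.15, 12.37 and 12.33 in cultured CD4+ cells, 11.78 and 10.66 in naive cells and 13.27 and 13.15 in activated cells. It was called higher than naive in all 3 groups, at 1.35 ± 0.26 (q = 0.0018), 1.06 ± 0.28 (q = 0.0093) and 1.99 ± 0.31 (q = 0.0019).

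Nolc1, which escorts snoRNPs, read 10.12, 9.69, 8.82, 10.01 and 9.90 in CD8+ NKT-like cells, 9.10, 10.05 and 10.13 in cultured CD4+ cells, 8.92 and 8.02 in naive cells and 11.32 and 10.68 in activated cells. NKT-like replicate 3 overlapped the naive arrays. The gene was called in activated cells at 2.53 ± 0.47 (5.79-fold, q = 0.0043), and gave 1.24 (q = 0.018) and 1.29 (q = 0.022) in the cultures. Gnl3, nucleostemin, gave 0.10, 0.32 and 1.39 (q = 0.35, 0.23 and 0.029), and Lyar gave 0.61, 0.96 and 2.16 (q = 0.14, 0.073 and 0.015).

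Npm1, nucleophosmin, read 13.00, 13.12, 12.74, 13.11 and 13.12 in CD8+ NKT-like cells, 12.73, 13.05 and 12.99 in cultured CD4+ cells, 12.92 and 12.77 in naive cells and 13.49 and 13.52 in activated cells. The cultures and naive cells overlapped, at differences of 0.17 and 0.08, and the activated arrays stood 0.66 ± 0.15 above naive without passing (q = 0.012). A second probe set of Npm1 was called higher in CD8+ NKT-like cells at 1.12 (q = 0.0071) and in activated cells at 1.61 (q = 0.0078), so the choice of probe set decided whether Npm1 counted.

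**Figure D3:**
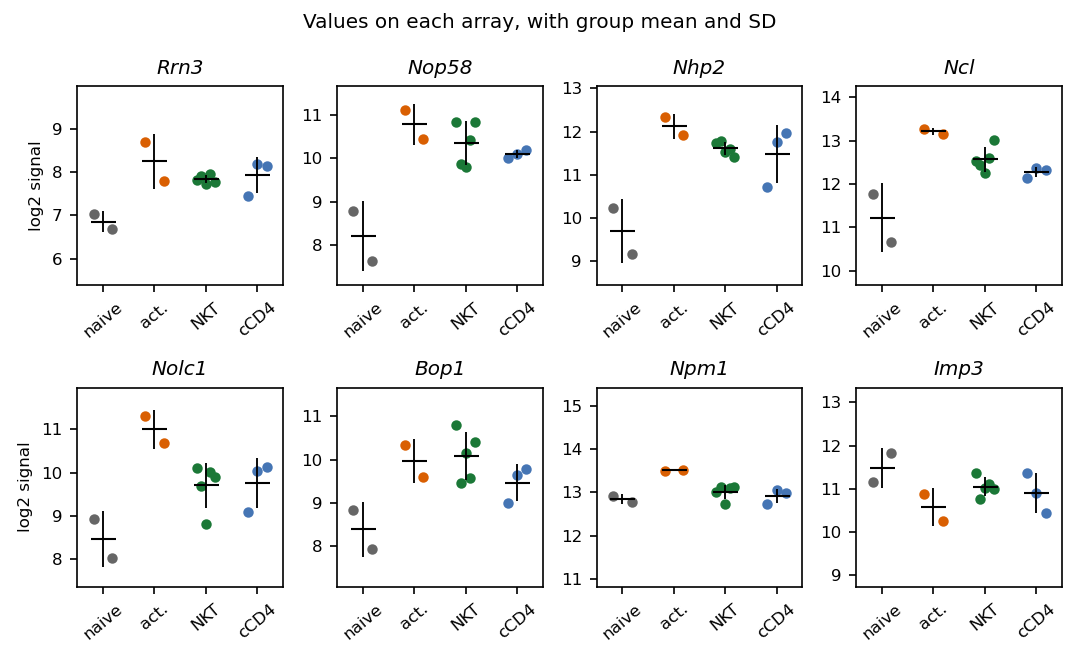
Log2 signal of 8 genes on each array (points), with the group mean (bar) and SD (line), for naive CD8, activated CD8, NKT-like (NKT) and cultured CD4 (cCD4) cells. All panels span the same number of log2 units around their own middle, since levels of different genes are not comparable here. Rrn3, Nop58, Nhp2, Ncl and Bop1 have both naive arrays below the rest, and Imp3 has its highest array among the naive cells.

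Small subunit factors were the largest set, with 15 genes. Against naive cells, 5 of them were called higher in CD8+ NKT-like cells (Wdr43, Dcaf13, Nop14, Bysl and Nob1). In cultured CD4+ cells 3 were called higher (Dcaf13, Imp4 and Bysl) and in activated cells 4 (Wdr43, Wdr75, Dcaf13 and Imp4). These were 33.3%, 20% and 26.7% of the set, against 10.7%, 11.6% and 4.43% of all genes. Dcaf13, a processome protein, read 10.18, 10.29, 9.92, 10.32 and 10.45 in CD8+ NKT-like cells, 9.80, 10.31 and 10.39 in cultured CD4+ cells, 9.41 and 8.78 in naive cells and 10.81 and 10.27 in activated cells. The naive arrays lay below all others, and the differences were 1.14 ± 0.23 (q = 0.0021), 1.07 ± 0.25 (q = 0.0046) and 1.44 ± 0.27 (q = 0.0045). Nob1, the endonuclease that makes the final cut of small subunit rRNA, read 9.82, 9.86, 9.95, 10.15 and 9.60 in CD8+ NKT-like cells, 9.31, 9.92 and 9.97 in cultured CD4+ cells, 9.23 and 8.37 in naive cells and 10.27 and 9.65 in activated cells. It was called in CD8+ NKT-like cells at 1.08 ± 0.26 (q = 0.0058), and gave 0.93 (q = 0.016) in cultured CD4+ and 1.16 (q = 0.023) in activated cells.

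Imp3, which together with Imp4 and the U3 RNA pairs with the precursor, ran the other way. It read 11.36, 10.77, 11.03, 11.11 and 11.01 in CD8+ NKT-like cells, 11.37, 10.90 and 10.45 in cultured CD4+ cells, 11.17 and 11.82 in naive cells and 10.89 and 10.27 in activated cells. Both activated arrays lay below both naive arrays and the cultures overlapped them. The differences from naive were -0.44, -0.59 and -0.91, and none passed (q = 0.10, 0.068 and 0.060). Utp18, another processome protein, read 10.05, 8.94, 9.50, 9.64 and 9.58 in CD8+ NKT-like cells and 9.51, 9.12 and 8.98 in cultured CD4+ cells. It read 9.51 and 9.72 in naive cells and 9.83 and 9.20 in activated cells. No groups were separated, although naive and cultured CD4+ cells met only at 9.51.

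Of 27 genes with several probe sets, 12 had probe sets of opposite sign in at least 1 comparison with naive cells, and in 6 of them (Polr1a, Dkc1, Wdr75, Bop1, Wdr12 and Ebna1bp2) a probe set was called in that comparison. The other 6 were Ubtf, Nat10, Heatr1, Pes1, Nop16 and Rrs1. Wdr75 had calls in both directions, in different comparisons. Its brightest probe set differed from naive by 0.44 in CD8+ NKT-like (q = 0.12), 0.81 in cultured CD4+ (q = 0.035) and 1.53 in activated cells (q = 0.00993), the last being called. Another, dimmer one was called lower than naive at -0.55 in CD8+ NKT-like (q = 0.00077) and -0.53 in cultured CD4+ cells (q = 0.0016). No gene was called both ways within one comparison. Of the other small subunit genes, Rrp12 gave 1.02, 1.29 and 1.68 (q = 0.020, 0.012 and 0.014), Nat10, which acetylates small subunit rRNA, 0.60, 0.53 and 1.35, and Tsr1 0.11, 0.38 and 1.03. Rrp9, Utp20 and Heatr1 had differences between -0.21 and 1.36, none of them called.

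Large subunit factors had positive differences from naive for all 10 measured genes in all 3 groups. Of these, 3 were called in CD8+ NKT-like cells (Bop1, Rrp1b and Ebna1bp2) and 2 in cultured CD4+ cells (Wdr12 and Ebna1bp2). In activated cells 4 were called (Wdr12, Rrp1b, Ebna1bp2 and Nop2). The shares were 30%, 20% and 40%, against 10.7%, 11.6% and 4.43% of all genes called higher. Bop1 read 10.80, 9.47, 10.15, 9.58 and 10.41 in CD8+ NKT-like cells, 8.99, 9.64 and 9.79 in cultured CD4+ cells, 8.84 and 7.94 in naive cells and 10.33 and 9.61 in activated cells. The naive arrays lay below all others. It was one of 2 genes with its highest group mean in CD8+ NKT-like cells, at 1.70 ± 0.39 above naive (3.24-fold, q = 0.0042), with 1.08 (q = 0.037) in cultured CD4+ and 1.58 (q = 0.033) in activated cells.

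Bop1 works in one complex with Pes1 and Wdr12, and the 3 genes were called in different places. Pes1 gave 1.21, 1.12 and 1.58 without passing (q = 0.017, 0.031 and 0.030). Wdr12 read 9.01, 8.86, 7.86, 8.81 and 8.62 in CD8+ NKT-like cells, 9.33, 9.46 and 9.45 in cultured CD4+ cells, 8.13 and 7.55 in naive cells and 9.98 and 9.31 in activated cells. Every NKT-like array lay below every cultured CD4+ array, and NKT-like replicate 3 fell between the naive arrays. Its differences from naive were 0.79 (q = 0.029), 1.57 ± 0.32 (q = 0.0022) and 1.81 ± 0.34 (q = 0.0049). The difference of CD8+ NKT-like from cultured CD4+ cells was -0.78 (95% interval -1.34 to -0.23) and did not pass (q = 0.11).

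Nop16 read 8.18, 8.08, 7.03, 8.12 and 8.23 in CD8+ NKT-like cells, 6.98, 8.39 and 8.44 in cultured CD4+ cells, 6.82 and 5.94 in naive cells and 9.17 and 8.39 in activated cells. All naive values were below all others, but the spread inside the groups was wide. Its differences of 1.55 ± 0.45, 1.56 ± 0.49 and 2.40 ± 0.54 were among the largest of the 43 and were not called (q = 0.012, 0.018 and 0.0101). Ebna1bp2 was called in all 3 groups at 1.41, 1.54 and 2.46 (q = 0.0070, 0.0073 and 0.0032). Nop2, an rRNA methyltransferase, gave 0.62 (q = 0.017), 0.76 (q = 0.011) and 1.38 (q = 0.0028). In CD8+ NKT-like cells dimmer probe sets gave -0.12 for Bop1, -0.35 for Pes1, -0.46 and -0.12 for Wdr12, -0.12 for Nop16 and 0.16 and -0.37 for Ebna1bp2, none of them called. Rrs1 and Ppan had the lowest differences of this set, at 0.06 and 0.49 in CD8+ NKT-like cells and 0.12 and 0.01 in cultured CD4+ cells.

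**Figure D4:**
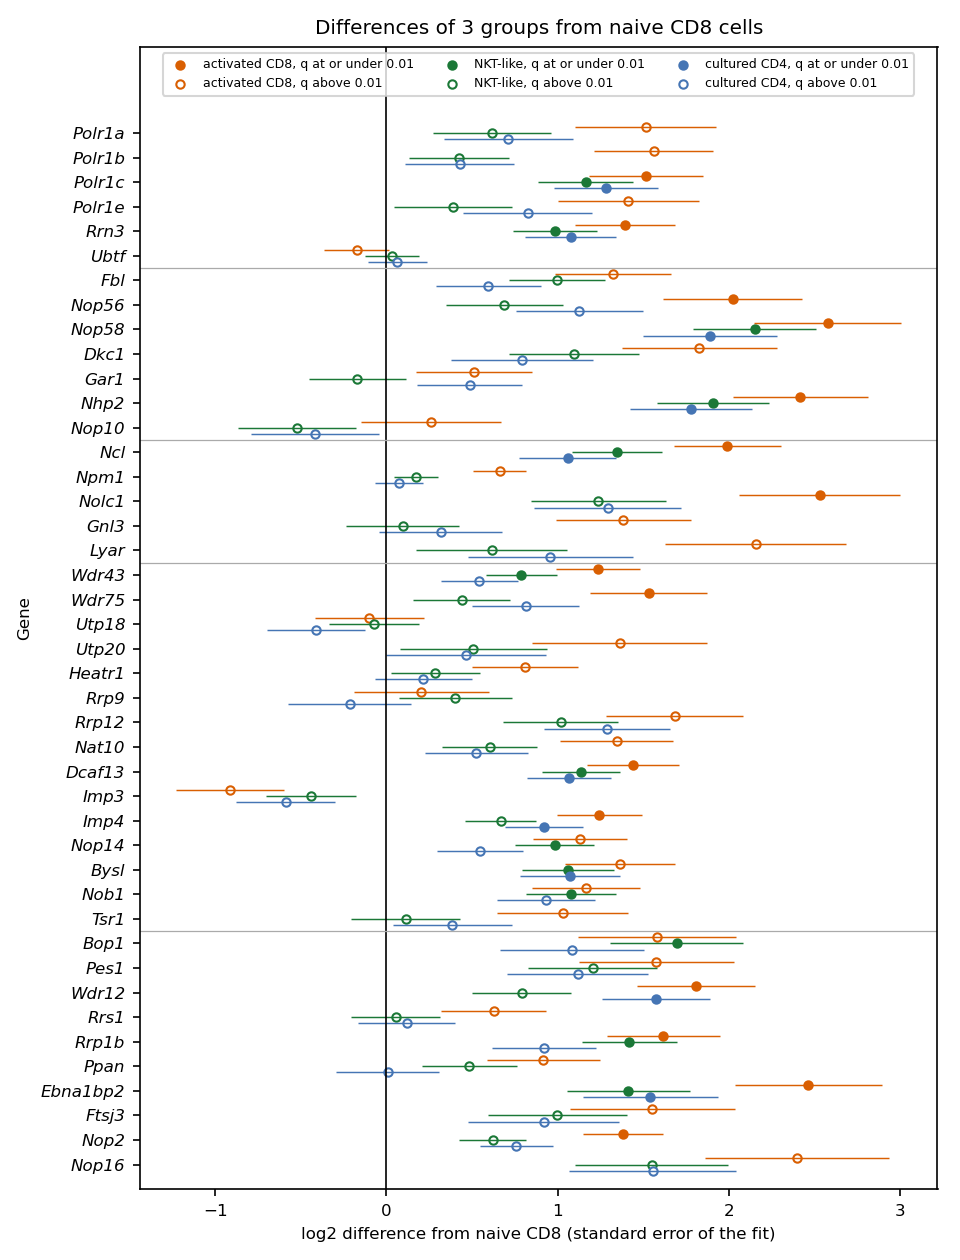
Log2 difference of each of the 43 genes from naive CD8 cells (horizontal axis) in activated CD8 (orange), NKT-like (green) and cultured CD4 (blue) cells, with the standard error from the limma fit; filled points have q at or under 0.01. Most points lie right of 0 and the orange point is usually furthest right, while all 3 points of Imp3 and of Utp18 lie left of 0.

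Across the 3 comparisons with naive cells, Polr1c, Rrn3, Nop58, Nhp2, Ncl, Dcaf13 and Ebna1bp2 were called in each, 5 genes in 2 of them, 7 genes in 1 and 24 in none. This count carries the same naive arrays 3 times. The same overlap over all genes is not given here, so the count cannot be set against that of other genes.

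The comparisons without naive cells asked whether CD8+ NKT-like cells differed from the other cultured or stimulated cells. Between CD8+ NKT-like and cultured CD4+ cells the median difference of the 43 genes was -0.00, with 21 genes above 0 and 22 below. None of the 43 was called in limma, against 1.24% of all genes called higher and 1.85% called lower. At an unadjusted p under 0.05 there were 0 higher and 2 lower (all genes 7.49% and 10.7%), namely Gar1 and Wdr12. The arrays did not overlap for 1 gene above (Fbl, 6.60% of all genes) and 2 below (Gar1 and Wdr12, 8.26% of all genes). The 95% interval of the difference ran from -0.56 to 0.38 for Rrn3 and from -0.43 to 0.95 for Nop58, so these data do not show that the levels were equal.

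By group means, activated CD8+ cells stood above both cultures for most genes, but their 2 arrays differed. On the deposited values the median of the 43 genes above the naive mean was 1.75 in activated replicate 1 and 1.06 in replicate 2. The latter was slightly below cultured CD4+ replicates 2 and 3 (1.11 and 1.07) and near NKT-like replicate 1 (0.99). Against activated cells, 38 of 43 genes were lower in CD8+ NKT-like cells, with a median difference of -0.57, and 41 of 43 were lower in cultured CD4+ cells, with a median of -0.63. Of all genes, 56.2% and 52.6% were lower. The medians were -0.30 and -0.39 without activated CD8+ replicate 1 and -0.89 and -0.94 without activated CD8+ replicate 2, and that of cultured CD4+ cells was -0.38 without cultured CD4+ replicate 1. None was called in either comparison on its brightest probe set. Of 40 dimmer probe sets of these genes, 2 were called lower in each comparison and 0 higher. In CD8+ NKT-like cells these were of Ncl (-0.78, limma q = 0.009) and Wdr75 (-0.62, q = 0.0017). In cultured CD4+ cells they were of Wdr75 (-0.60, q = 0.0057) and Heatr1 (-0.80, q = 0.0031). Over all genes, 3.36% were called higher and 1.00% lower in CD8+ NKT-like than in activated cells, and 1.53% and 0.319% in cultured CD4+ than in activated cells. Limma's unadjusted p was under 0.05 for 19 genes lower and 0 higher in CD8+ NKT-like cells (all genes 10.3% and 13.9%), and for 17 lower and 0 higher in cultured CD4+ cells (5.69% and 11.9%). Every NKT-like array lay below both activated arrays for 22 genes (51.2%, against 10.6% of all genes), and every cultured CD4+ array did so for 20 (46.5%, against 8.87%). Both activated arrays lay above all of the other 10 for 13 genes, which 2.44% of all genes did.

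The genes nearest to a call against activated cells were Nop56 at -1.33 (95% interval -2.08 to -0.58, q = 0.026), Gnl3 at -1.29 (-2.01 to -0.57, q = 0.026), Polr1b at -1.14 (-1.78 to -0.49, q = 0.027) and Nop2 at -0.76 (-1.19 to -0.33, q = 0.027) in CD8+ NKT-like cells. In cultured CD4+ cells it was Npm1 at -0.59 (-0.90 to -0.28, q = 0.035). Genes called higher than naive in all 3 groups could lie close together here: Rrn3 was -0.41 (-0.94 to 0.13) and Polr1c -0.35 (-0.97 to 0.26) in CD8+ NKT-like against activated cells. After quantile normalization 5 genes were called lower in CD8+ NKT-like and 2 in cultured CD4+ cells than in activated cells (2.47% and 0.594% of all genes).

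Other genes of the pathway were counted from a wider list. Of 97 measured ribosome biogenesis genes outside the 43, 20 were called higher and 1 lower than naive in CD8+ NKT-like cells, 19 and 2 in cultured CD4+ cells and 23 and 1 in activated cells, with medians of 0.52, 0.61 and 0.92. The shares called higher were 20.6%, 19.6% and 23.7%, against 10.7%, 11.6% and 4.43% of all genes. Utp6, a processome protein, rose most, by 1.80 ± 0.29 (q = 0.0006), 2.11 ± 0.31 (q = 0.00042) and 2.61 ± 0.34 (q = 0.00073). Rpf2, a large subunit factor, was called lower at -0.95, -0.88 and -1.07. Of 16 genes of the RNA exosome and other rRNA nucleases, which trim rRNA ends, 6, 4 and 3 were called higher (37.5%, 25% and 18.8%) and 0 lower, Mphosph6 in each comparison at 1.43, 1.90 and 2.04.

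Genes for the cytosolic ribosomal proteins had medians near 0. Of 45 measured of 79 listed, 1 was called higher and 3 lower than naive in CD8+ NKT-like cells, 0 and 1 in cultured CD4+ cells and 0 and 0 in activated cells, with medians of -0.01, -0.03 and -0.05. The 6.67% called lower in CD8+ NKT-like cells was near the 6.86% of all genes. Rpl12 was called lower at -1.82 in CD8+ NKT-like cells and Rpl14 higher at 1.39. Most probe sets of this list lay near the top of the scale, at array medians of 13.44 to 13.71, and ribosomal protein genes have many near-identical copies, so these values are less certain.

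Of the MYC family, which is known to drive this pathway, Myc read 11.85, 10.59, 10.51, 11.07 and 10.42 in CD8+ NKT-like cells, 10.32, 11.01 and 10.90 in cultured CD4+ cells, 10.31 and 10.38 in naive cells and 12.04 and 11.51 in activated cells. Its difference from naive was 0.54, 0.40 and 1.43 (q = 0.12, 0.20 and 0.032). Mycn read 10.02 to 11.32 in CD8+ NKT-like cells, 6.67 to 7.81 in cultured CD4+ cells and 6.17 to 6.43 in naive and activated cells, and was called higher in CD8+ NKT-like cells than in each other group, by 4.38, 3.23 and 4.23 against naive, cultured CD4+ and activated cells (q = 6.6e-06, 9.6e-05 and 3.5e-05).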

How the data were processed

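RNA of 12 samples was hybridised to Affymetrix mouse arrays, 1 sample per array. Per the labels the authors summarised the arrays with RMA (version not given in the sources used here). The deposited values are on the log2 scale, 1 value per probe set and array, from 3.18 to 14.55. Array medians ran from 6.23 to 6.42, so the arrays are comparable in centre but not identical in distribution, and whether all 12 were normalized together is not stated. The number of arrays limits the precision.

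Groups and replicate numbers came from the sample titles. After 64 control probe sets were left out, 45037 probe sets were fitted in R 4.3.3 with limma 3.58.1 (1 mean per group, all 12 arrays, 8 residual and 3.03 prior degrees of freedom). As in the study's methods, groups were compared pairwise and probe sets called at a Storey q of 0.01 or less. Each of the 6 comparisons was adjusted separately over all probe sets, which the methods do not specify. Genes were named through the platform annotation, which gave 34945 probe sets 1 symbol, 932 several and 9160 none, and each of 18193 genes was read on its brightest probe set. A filter on dim probe sets, used only as an alternative, kept all 43 measured members.

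The members and lists were chosen with earlier results of these data known. Values in every sample are given for the 2 members per role group with the largest difference between CD8+ NKT-like and naive cells, for members whose sign went against their role group, and for a few others named after their values were seen (Npm1, Wdr12 and Myc). Members whose probe sets differ in sign against naive cells are named. Promoter letters are from RefSeq. The fit was tested on simulated data with 200 changed probe sets. Alternatives covered the prior, array weights, adjustment, threshold, filter, normalization, probe set choice, replicate block and each array left out.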

Additional observations from a re-analysis of the deposited data

Results flagged for a closer look

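In 3 of the 43 genes, 1 of the 5 CD8+ NKT-like arrays lay far from the other 4, with a gap above Dixon's 95% critical value of 0.71 of the range. Polr1a read 7.94 in replicate 3 and 8.39 to 8.52 in the others. Nop16 read 7.03 in replicate 3 and 8.08 to 8.23 in the others. Ftsj3, an rRNA methyltransferase, read 7.47 in replicate 5 and 5.98 to 6.35 in the others. Chance flags about 1 in 20 such groups, and 43 genes were examined. NKT-like replicate 3 was also the lowest NKT-like array for 29 of the 43 genes.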

How the results depend on the processing

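Sign changes were checked for the members named for the largest difference or for a sign against their role group. None of their called differences changed sign under any alternative run, but the counts of genes called moved. Genes called higher than naive in CD8+ NKT-like cells (13) numbered 5 with Benjamini-Hochberg adjustment, 23 at q 0.05, 20 with array weights and 7 after cyclic loess. Those settings called 7.24%, 19.4%, 13% and 8.46% of all genes higher. For cultured CD4+ cells (10) the counts were 3 with each pair of groups fitted alone, 3 with Benjamini-Hochberg, 21 at q 0.05, 21 with array weights, 5 after quantile normalization and 3 after cyclic loess. The shares of all genes were 10.4%, 8%, 20.2%, 17.8%, 9.2% and 8.89%. For activated cells (15) the counts were 0 with the pair fitted alone, 0 with array weights, 32 at q 0.05, 24 with the filter on dim probe sets and 23 after quantile normalization. The shares of all genes were 0.308%, 0.473%, 9.83%, 8.46% (of the genes the filter kept) and 6.04%. Genes called lower in CD8+ NKT-like than in activated cells (0) numbered 9 at q 0.05, 5 after quantile normalization, 4 after cyclic loess and 2 with the mean of all probe sets, and lower in cultured CD4+ than in activated cells (0) they numbered 1 at q 0.05, 2 after quantile normalization and 1 after cyclic loess. Of all genes, 3.88%, 2.47%, 1.73% and 1.4% were called lower in the former, and 0.896%, 0.594% and 0.451% in the latter. With the brightest probe set whose identifier lacks a shared-sequence ending, 1 gene (2.33%), Wdr75 on its dimmer probe set, was called lower. This held for CD8+ NKT-like and cultured CD4+ cells, against naive and against activated cells. Its differences from naive, 0.44 and 0.81 on the brightest probe set, were then -0.55 and -0.53. The shares of all genes called lower were 6.87% and 5.9% against naive and 0.973% and 0.33% against activated cells. Of all genes, the 12 settings other than leaving out an array called 2.14% to 19.4% higher than naive in CD8+ NKT-like, 4.06% to 20.2% in cultured CD4+ and 0.308% to 9.83% in activated cells. In cultured CD4+ cells the 3 genes left with the pair fitted alone, with Benjamini-Hochberg or after cyclic loess were 6.98% of the 43, below the 10.4%, 8% and 8.89% of all genes. The cause of these moves was not tested.

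Leaving out 1 array at a time gave 0 to 18 genes higher than naive in CD8+ NKT-like, 0 to 19 in cultured CD4+ and 0 to 25 in activated cells, and 0 to 1 lower in CD8+ NKT-like than in activated cells. The replicate block, the replicate number of the titles as a term, left 1, 2 and 1 genes higher than naive (2.33%, 4.65% and 2.33%), against 2.14%, 4.06% and 0.77% of all genes. Correlations between same-numbered arrays ran from -0.50 to 0.28. Only naive and activated cells gave values over 0.1 at every number they share (0.28 and 0.28). Each of these groups has 2 arrays, so these values may not be separate evidence. The numbers were not taken to pair the samples.

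Groups of 2 arrays limit every comparison with naive or activated cells. Signal over background per probe set was not analysed here.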
